A study of Mus musculus with 24 samples.

Results

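The regions described here are places in the mouse genome where PU.1 was bound and the histone mark H3K4me1 was present while no peak of open chromatin was called. PU.1 peaks of 3 Utx wild-type (WT) libraries were merged, and a region was kept when it lay on an autosome, held a peak of all 3 libraries, overlapped an H3K4me1 island in both WT libraries and overlapped no ATAC-seq peak in any of 4 WT libraries with an empty guide RNA vector. The regions were thus selected on measured values, the presence of peaks in the WT lists, and those values are described below without a test. Of 157907 merged autosomal regions, 110341 held PU.1 in all 3 libraries, and 19242 of these met the rule. They are called marked closed sites below, where closed means only that no ATAC peak was listed. They are set beside 17676 marked open sites, which had both marks and an ATAC peak in all 4 libraries, and 41518 unmarked closed sites, which had PU.1 with neither.

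PU.1, encoded by Spi1, is an ETS family transcription factor that binds purine-rich GGAA sequences and is needed for myeloid and B lymphoid development. It can bind DNA within nucleosomes, and in macrophages and progenitors its binding is known to go with the deposition of H3K4me1, the monomethylation of histone H3 that marks both active and poised enhancers. Utx, encoded by the X-linked gene Kdm6a, is a histone H3K27 demethylase that is part of the complexes in which the methyltransferases Kmt2c and Kmt2d deposit H3K4me1.

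The cells were lineage-negative bone marrow progenitors of C57BL/6 mice, enriched with a depletion kit, of genotype Utx WT or Utx knockout (KO). H3K4me1 was mapped by ChIP-seq in 2 WT and 2 KO libraries and PU.1 in 3 of each. ATAC-seq, which cuts accessible DNA with a transposase, was done on Cas9-expressing cells that carried either an empty vector or a guide RNA (gRNA) to Smarca4, the gene of the remodelling enzyme Brg1, in WT and in KO, with 2 libraries of each. A separate ATAC set held 2 WT empty-vector libraries and 2 WT libraries with a gRNA against Chd4, the gene of a remodelling enzyme of the NuRD complex. In that set the label gives 7 days of semi-solid and 5 days of liquid culture and harvest at 6 days after editing. The labels of the other ATAC libraries and of the ChIP-seq libraries name no culture, so whether ATAC and ChIP lists come from cells in the same state is not known. A bulk list cannot tell a mark held by fewer cells from a weaker mark in all of them. The labels do not give the age of the animals, the driver of the deletion, or whether replicates were separate animals, so p-values measure only the spread between these libraries.

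The lists held 137850 to 171535 PU.1 islands, 43706 to 54654 H3K4me1 islands and 24833 to 50927 ATAC peaks per library. Each ChIP island carries a whole number taken here as its read count in that library. These counts are not scaled for depth, and they sum to between 20.4 M and 27.8 M reads over PU.1 islands and between 6.93 M and 14.2 M over H3K4me1 islands, while the ATAC lists give no count, so their depth is unknown. The progenitor genes Kit, Cd34, Flt3, Gata2 and Meis1 all had H3K4me1 in both WT libraries and ATAC peaks in all 4 empty-vector libraries. Of the markers of other cells, the T cell gene Cd3e had neither, while the B cell gene Pax5 and the stromal gene Pdgfra had both.

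The sequences that can be shown are those at gene starts, since the reference used here gives 300 bases around each start (250 before, 50 after). Marked closed sites held 236 such windows in full, in 220 of the sites. The 8 below are the windows in sites with the highest WT PU.1 signal that have the PU.1-type sequence GAGGAA on either strand. They are from RefSeq, build GRCm38.p6, and are printed 5′ to 3′ on the strand of the gene. Each shows 96 bases before the start, and the capitals mark the first GAGGAA, or TTCCTC where it lies on the other strand, that has 45 bases of the part before the start on each side.
Tlr9, chr9:106222441-106222536, plus strand: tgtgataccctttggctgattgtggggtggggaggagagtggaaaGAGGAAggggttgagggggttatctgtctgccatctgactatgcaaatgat
Ptprj, chr2:90479323-90479418, minus strand: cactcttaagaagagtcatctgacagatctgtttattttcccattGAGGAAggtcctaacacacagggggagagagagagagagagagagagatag
Aox3, chr1:58113032-58113127, plus strand: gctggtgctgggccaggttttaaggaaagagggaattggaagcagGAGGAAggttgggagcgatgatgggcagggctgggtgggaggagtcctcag
Treml4, chr17:48264072-48264167, plus strand: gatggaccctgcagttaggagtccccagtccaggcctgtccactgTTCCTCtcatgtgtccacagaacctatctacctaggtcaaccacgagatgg
Txndc2, chr17:65642307-65642402, minus strand: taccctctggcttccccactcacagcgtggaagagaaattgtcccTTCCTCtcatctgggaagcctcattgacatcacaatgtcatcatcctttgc
Rasgrp3, chr17:75435712-75435807, plus strand: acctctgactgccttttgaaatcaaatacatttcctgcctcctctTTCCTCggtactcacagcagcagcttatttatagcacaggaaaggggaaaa
F13a1, chr13:37050260-37050355, minus strand: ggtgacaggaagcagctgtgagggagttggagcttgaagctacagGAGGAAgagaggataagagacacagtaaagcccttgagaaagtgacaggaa
Ctss, chr3:95526577-95526672, plus strand: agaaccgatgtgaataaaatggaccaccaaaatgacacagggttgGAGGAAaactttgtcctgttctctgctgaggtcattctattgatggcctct

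GAGGAA, searched on both strands, was in 99 of the 236 windows (41.9%). It was in 27.2% of all 20085 protein-coding start windows of the same length on these chromosomes and in 27.0% of 8445 windows inside marked open sites. The Runx-type sequence TGTGGT was in 15.3% of the 236 windows, against 14.8% of all windows and 11.7% of windows inside marked open sites. For the GATA-type sequence AGATAA the shares were 11.4%, 9.57% and 5.04% in the same order. A higher share than in marked open sites was thus not particular to GAGGAA. A match of 6 letters is a description of the window and not a binding site.

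At the Tlr9 start the site chr9:106221601-106223999 carried 1097, 1177 and 1201 PU.1 reads in the WT libraries and 1071, 887 and 914 in the KO libraries. Tlr9 encodes an endosomal receptor for unmethylated CpG DNA. Its H3K4me1 islands held 554 and 1829 reads in WT and 444 and 2920 in KO, so both marks were present in every library. The site at Ctss, the gene of the lysosomal protease cathepsin S, had 457, 509 and 582 PU.1 reads in WT and 524, 443 and 471 in KO, with H3K4me1 in all 4 libraries. Rasgrp3, which encodes an activator of Ras proteins, was the exception among the 8. Its site kept PU.1 with 571, 417 and 453 reads in KO against 557, 657 and 601 in WT, but its H3K4me1 islands of 51 and 85 reads in WT were matched by 193 reads in 1 KO library and none in the other. Over all 220 sites with a whole window, PU.1 was present in all 3 KO libraries at 193, and H3K4me1 was present in both KO libraries at 184 and in neither at 16. These shares of 87.7%, 83.6% and 7.27% stand beside 85.5%, 60.9% and 18.3% over all marked closed sites.

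PU.1 signal at the marked closed sites was in the middle of the range. The sites were selected on the lists these values come from. The median site had 119, 145 and 140 reads in the 3 WT libraries, against 302, 349 and 380 for marked open sites and 68, 75 and 69 for unmarked closed sites. Ranked within each library's own list, the median percentiles were 61.9, 63.4 and 61.9. Only 1517 sites (7.88%) were among the top 10% of all PU.1 regions by mean percentile, against 33.5% of marked open and 0.540% of unmarked closed sites. Sites were also narrower than the open ones, with a median width of 999 bp (interquartile range 799 to 1399) against 1999 bp, and their reads per kb were 157, 169 and 160 against 185, 198 and 208. Just outside the rule, regions with H3K4me1 in both libraries and an ATAC peak in 1 of 4 numbered 2928 with a median PU.1 percentile of 70.9, and regions with H3K4me1 in 1 library and no ATAC peak numbered 10659 with 55.1. Marked closed regions with PU.1 in only 2 or only 1 of the 3 libraries numbered 2866 and 3415, with median percentiles of 20.6 and 13.7.

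The 6 strongest sites lay between 14724 and 244007 bp from the nearest gene start. The strongest, chr13:112394801-112399399, lies between genes, 10796 bp from Ankrd55, and had 1237, 1443 and 1668 PU.1 reads in WT and 1334, 820 and 854 in KO. The next, chr19:32308801-32313599, is inside Sgms1, which encodes a sphingomyelin synthase, and had 1308, 1445 and 1531 reads in WT and 1409, 1063 and 1082 in KO. The others lay within Supt3 and Scnn1a and between genes near Rab3c and Icos. Each of the 6 kept PU.1 and H3K4me1 in every KO library and none had an ATAC peak in KO with empty vector. The site within Supt3, which encodes a subunit of the SAGA acetyltransferase complex, had an ATAC peak in both WT libraries with Smarca4 gRNA.

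Most marked closed sites were away from gene starts. Of the 19242, 628 (3.26%) were within 1000 bp of the start of a protein-coding gene, 11509 (59.8%) were elsewhere within a gene and 7105 (36.9%) were between genes. Among marked open sites 38.7% were at a start. The median distance to a start was 27940.5 bp for marked closed sites and 7742 bp for marked open sites. The share of PU.1 regions that met the rule ran from 13.8% on chromosome 3 to 22.3% on chromosome 11.

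Many lay in the same H3K4me1 island as an open site. The sites occupied 14295 merged WT islands, of which 10998 held 1 site and the fullest held 18, so sites of 1 island share their H3K4me1 value. For 11112 sites (57.7%) the island also held an ATAC peak elsewhere, and for 8130 (42.3%) it held none. The nearest WT empty-vector ATAC peak was a median of 3572.5 bp away, with 3203 sites under 1 kb, 8206 at 1 to 5 kb, 5629 at 5 to 20 kb, 1976 at 20 to 100 kb and 228 farther.

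In Utx KO cells most marked closed sites still had PU.1, fewer still had H3K4me1, and almost none became open. PU.1 was present in all 3 KO libraries at 16459 sites (85.5%) and in none at 563 (2.93%). Over all 110341 regions with PU.1 in the 3 WT libraries these shares were 88.2% and 2.05%. H3K4me1 was present in both KO libraries at 11709 sites (60.9%), in 1 at 4010 (20.8%) and in neither at 3523 (18.3%). Over all 50016 PU.1 regions with H3K4me1 in both WT libraries, 79.1% kept it in both KO libraries and 9.13% had it in neither. WT is at 100% for both marks by the rule, so a comparison of KO with WT is not a test, and the KO shares are compared between kinds of site.

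**Figure D1:**
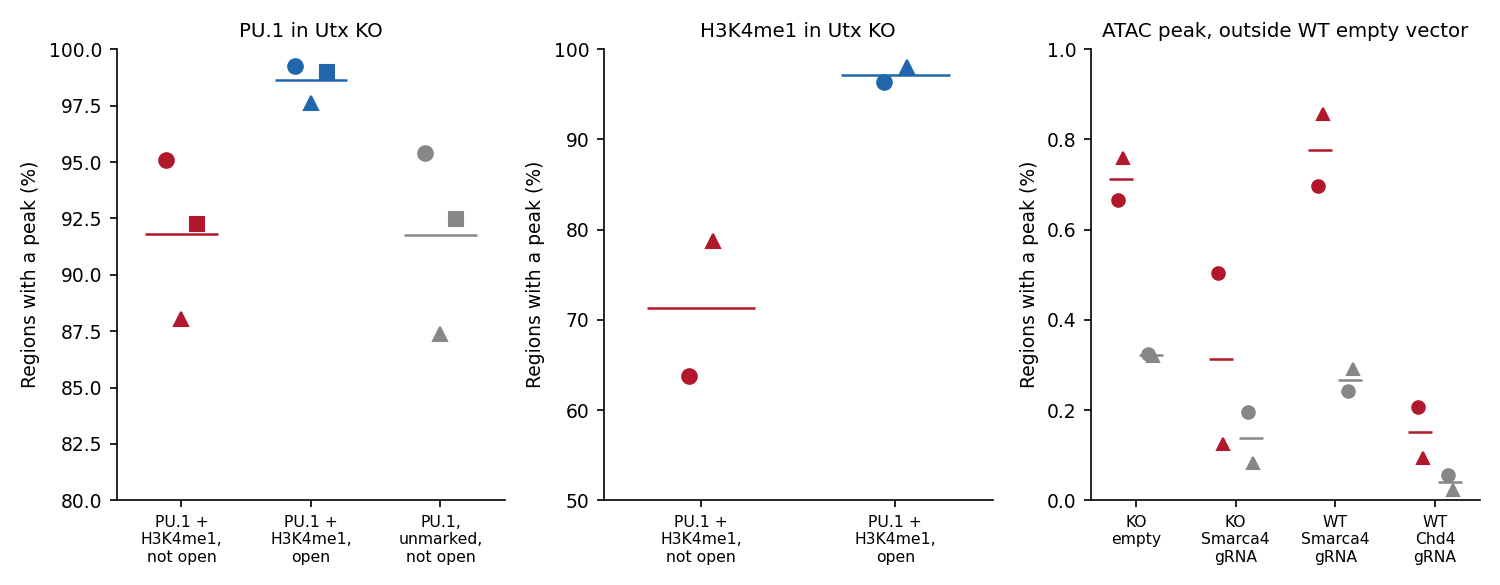
Percent of regions with a peak in each library (y axes differ and the first and second panels do not start at 0), for marked closed sites (red), marked open sites (blue) and unmarked closed sites (grey); circles, triangles and squares are replicates 1, 2 and 3 and lines are means. H3K4me1 in KO was at 63.8% and 78.8% of marked closed sites and at 96.3% and 98.0% of marked open sites, whereas ATAC peaks were at under 1% of marked closed sites in every library shown.

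H3K4me1 was missing from the KO libraries more often at marked closed than at marked open sites. The mark was present at 63.8% and 78.8% of marked closed sites in the 2 KO libraries (mean 71.3% ± 10.6, SD, n = 2) and at 96.3% and 98.0% of marked open sites. The difference was -32.6 and -19.2 percentage points (mean -25.9), lower in both libraries, with p = 0.5 by an exact sign-flip permutation test, two-sided, the smallest p that 2 libraries allow. The gap between the classes exceeded the gap between the 2 KO libraries within each class. Only 234 marked open sites (1.32%) had the mark in neither KO library. The KO library with the lower share had the smaller covered length, 180 Mb against 226 Mb, with 44089 and 43706 islands, and the WT lists were longer at 51394 and 54654. The part of list length in the loss was not tested beyond cutting the lists to equal length, which gave 75.2% and a difference of -22.6.

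The difference was present in every range of WT H3K4me1 island strength. Sites were placed in 5 equal groups by the percentile of their WT island. That percentile ranks the reads of the whole island, which for 57.7% of marked closed sites also held an open site. Strength of the mark at the site itself was therefore not matched. From the weakest group to the strongest, the mean share of marked closed sites with H3K4me1 in KO was 44.6%, 65.5%, 74.5%, 81.9% and 89.9%. For marked open sites in the same ranges it was 83.7%, 95.5%, 98.1%, 98.8% and 99.6%. In all 5 groups both KO libraries had the lower share at marked closed sites. Reading the mark only at the central 200 bp of each region, a choice made after seeing the data because open sites are wider, left shares of 62.5% and 78.3% at marked closed sites and 92.6% and 96.7% at marked open sites.

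**Figure D2:**
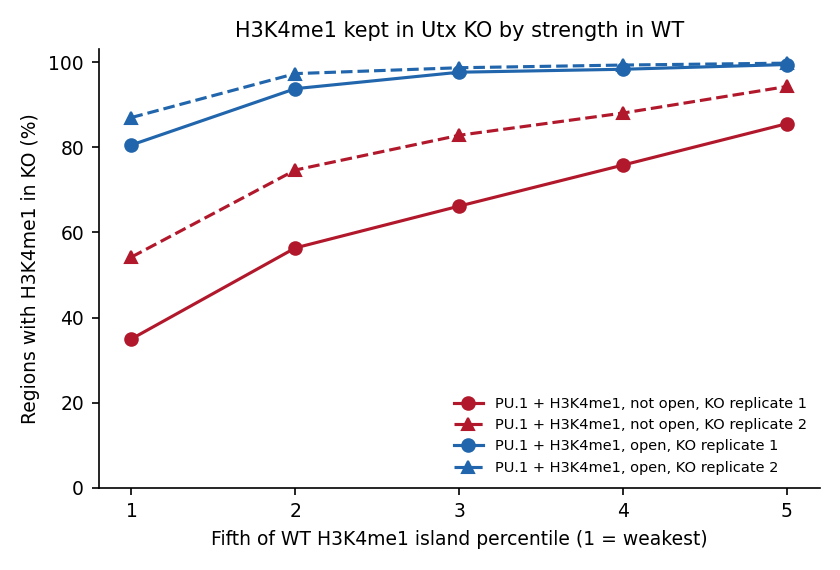
Percent of regions with H3K4me1 in each Utx KO library (y axis) in 5 ranges of WT H3K4me1 island percentile from weakest to strongest (x axis), for marked closed (red) and marked open (blue) sites. The red lines lie below the blue lines in every range, with means of 44.6% and 83.7% in the weakest and 89.9% and 99.6% in the strongest.

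Among the marked closed sites themselves, the mark was kept less often far from open chromatin. Sites under 1 kb from a WT ATAC peak had H3K4me1 in 79.8% and 89.8% of cases in the 2 KO libraries, and those at 100 kb or more in 44.7% and 68.9%. WT H3K4me1 strength moved with distance too, from a median percentile of 82.7 under 1 kb to 38.0 at 100 kb or more, and its part was not tested by distance. Where the island held an open site, 10.9% of sites lost the mark in both KO libraries, and where it held none, 28.4%. Within the weakest of the 5 strength groups these shares were 32.9% of 450 and 42.0% of 3399, and within the strongest 4.43% of 3721 and 7.03% of 128. By place, the mark was absent from both KO libraries at 9.55% of sites at starts, 17.6% within genes and 20.2% between genes. These splits are descriptions with no test.

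**Figure D3:**
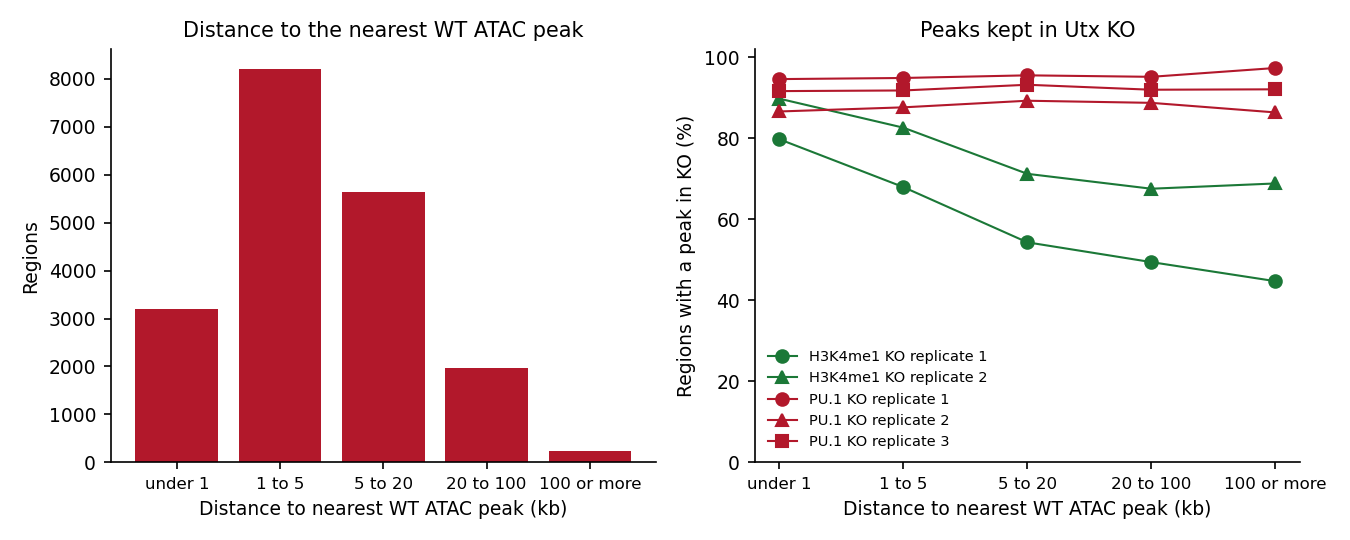
Number of marked closed sites (left, y axis) and percent with a PU.1 or H3K4me1 peak in each Utx KO library (right, y axis) by distance to the nearest ATAC peak of the 4 WT empty-vector libraries in kb (x axes). H3K4me1 (green) goes from 79.8% and 89.8% under 1 kb to 44.7% and 68.9% at 100 kb or more, while PU.1 (red) stays between 86.4% and 97.4%.

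PU.1 was less often kept at marked closed than at marked open sites. The share with a PU.1 peak was 95.1%, 88.1% and 92.2% in the 3 KO libraries (mean 91.8% ± 3.54, SD, n = 3), against 99.3%, 97.6% and 99.0% of marked open sites. The difference was -6.82 percentage points (range -9.54 to -4.15), lower in 3 of 3 libraries, with p = 0.25 by an exact sign-flip permutation test, two-sided, the smallest that 3 libraries allow. Against unmarked closed sites, at 95.4%, 87.4% and 92.5%, the mean difference was 0.0423 points (range -0.302 to 0.681, p = 1 by the same exact test). The shares followed the length of the KO lists, which held 171535, 138373 and 161605 islands.

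The strength of PU.1 in WT went with this closely. The sites were placed in 3 equal groups by WT PU.1 percentile, with borders at 48.8 and 74.1. In the weakest group PU.1 was present in KO at 86.0%, 68.3% and 78.7% of marked closed sites, in the middle group at 99.4%, 95.9% and 98.0%, and in the strongest at 99.98%, 100% and 99.98%. Unmarked closed sites of the weakest range kept PU.1 at 92.8%, 80.5% and 88.3%, so marked closed sites of that range were lower by a mean difference of -9.56 points in 3 of 3 libraries (p = 0.25, exact sign-flip permutation test, two-sided). The near-equality with unmarked closed sites over all strengths therefore did not hold within this range, a comparison added after seeing the data. Marked closed sites were lower than marked open sites of the weakest range as well, by a difference of -7.42, which was also computed after seeing the data. Median WT percentiles in that range were 33.5 and 39.5, so strength was not fully matched. In the middle range the mean shares were 97.8% at marked closed and 98.7% at marked open sites, and in the strongest 99.99% and 99.997%. The mean difference from marked open sites within the 3 ranges was -2.80 points. Open sites were also wider, and the part of width was not tested.

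**Figure D4:**
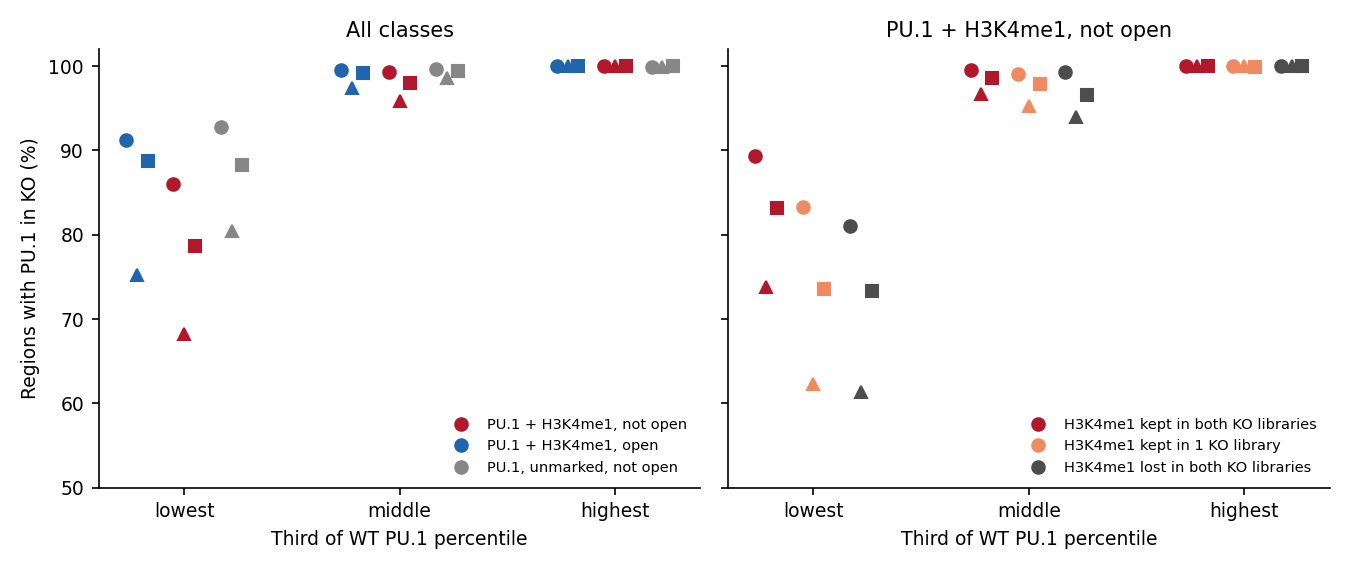
Percent of regions with a PU.1 peak in each of the 3 Utx KO libraries (y axis from 50%; circles, triangles and squares are replicates 1, 2 and 3) in 3 ranges of WT PU.1 percentile (x axis), by kind of site (left) and, for marked closed sites, by the state of H3K4me1 in KO (right). In the weakest range marked closed sites were at 86.0%, 68.3% and 78.7%, and in the strongest range nearly every region of every kind kept PU.1.

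Loss of one mark did not usually come with loss of the other. H3K4me1 was absent from both KO libraries while PU.1 was present in all 3 at 2711 sites (14.1%, against 7.1% of all marked PU.1 regions). Both marks were absent from all KO libraries at 201 sites (1.04%, against 0.49% of all marked PU.1 regions). PU.1 and H3K4me1 were present in every KO library at 10440 sites (54.3%).

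PU.1 was nevertheless kept less often where H3K4me1 was lost. Sites without H3K4me1 in both KO libraries had PU.1 at 91.3%, 80.7% and 87.0% in the 3 KO libraries, and sites with it in both had 96.7%, 91.2% and 94.6%. The difference was -7.82 percentage points, lower in 3 of 3 libraries (p = 0.25, exact sign-flip permutation test, two-sided). The sites that lost the mark also had weaker PU.1 in WT, with a median percentile of 52.6 against 65.1. In the weakest of the 3 PU.1 groups the difference was -10.2 and in the middle one -1.65, lower in 3 of 3 libraries in both. In the strongest group it was 0.00755, since 744 of 744 sites that lost H3K4me1 kept PU.1 in every library.

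The 3 sites with the strongest WT PU.1 among those that lost H3K4me1 are given as examples. One, chr10:93388201-93389999, lies 63397 bp from Lta4h, which encodes the enzyme that makes leukotriene B4. It had 728, 758 and 752 PU.1 reads in WT and 735, 509 and 560 in KO, while H3K4me1 islands of 104 and 259 reads in WT had no island in either KO library. A second lies 28880 bp from Pparg, the gene of a nuclear receptor of lipid metabolism, with 610, 714 and 715 PU.1 reads in WT and 688, 471 and 521 in KO. Its WT H3K4me1 islands were small, at 63 and 59 reads. The remaining one, within Relch, had 586, 704 and 697 PU.1 reads in WT and 584, 325 and 422 in KO. Its WT H3K4me1 islands held 66 and 167 reads. At all 3 the WT H3K4me1 counts were below the medians of 122 and 309 over all marked closed sites. All 3 lost the called mark with PU.1 in place in every library. Their choice by PU.1 strength made this outcome likely, since 744 of 744 sites of the strongest PU.1 group that lost H3K4me1 kept PU.1.

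The strongest sites that lost PU.1 had much lower counts to begin with. A site within Spata13, chr14:60703401-60705399, had 150, 143 and 128 PU.1 reads in WT and no island in the 3 KO libraries, with H3K4me1 left in 1 of 2. A site within Ccnd3, which encodes cyclin D3, had 93, 138 and 124 in WT and none in KO. Of sites that lost both marks, the strongest were within Atg7, an autophagy gene, 39627 bp from Irf1, an interferon response factor gene, and 14218 bp from Hemgn, a haematopoietic nuclear protein gene. Their WT PU.1 reads were 112, 131 and 70 for Atg7, 86, 94 and 98 for Irf1 and 80, 93 and 96 for Hemgn.

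Where PU.1 was kept in all 6 libraries its median unscaled read counts overlapped between genotypes, and its scaled counts did not. The median site of these 16459 had 142, 172 and 169 reads in WT and 171, 126 and 145 in KO. Per M of reads in all autosomal islands of its library this was 6.71, 7.11 and 6.85 in WT and 6.31, 6.35 and 6.05 in KO. The scaled KO values lay below the WT values without overlap. The denominator is the authors' island total and not the library's depth, and KO lists held more islands in 2 of 3 libraries, so these values were given no test.

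Hardly any of the sites opened in Utx KO. ATAC peaks of the 2 KO empty-vector libraries overlapped 128 and 146 sites (0.665% and 0.759%), and 63 sites (0.327%) had a peak in both, against 0.213% of all 71419 closed PU.1 regions. At unmarked closed sites the shares were 0.325% and 0.320%, so marked closed sites were higher by 0.389 percentage points, in both libraries (p = 0.5, exact sign-flip permutation test, two-sided, the smallest possible). When at least 50% of a region had to be covered by peaks, 5 of 12904 sites opened and the difference turned to -0.0196 points. The KO empty-vector ATAC peaks had median widths of 477 and 471 bp. Median region widths under the main rule were 999 bp for marked closed and 599 bp for unmarked closed sites. A median peak thus covers less than 50% of a median marked closed site but more than 50% of an unmarked one, so this setting cannot decide the difference. Of the 63 sites, 54 kept PU.1 in all 3 KO libraries, against 85.5% over all marked closed sites, and 46 kept H3K4me1 in both, against 60.9%.

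With the gRNAs, too, nearly all sites had no ATAC peak. With Smarca4 gRNA, 0.696% and 0.857% of sites had an ATAC peak in the 2 WT libraries and 0.504% and 0.125% in the 2 KO libraries, and with Chd4 gRNA 0.208% and 0.0935% in WT. The Chd4 gRNA lists were short, with 34429 and 24833 peaks against 48687 and 41480 for empty vector in that set. The part of this in the low shares was not tested. Sites with a peak in both libraries of a group numbered 36 for Smarca4 gRNA in WT, 18 for Smarca4 gRNA in KO and 5 for Chd4 gRNA. Over all closed PU.1 regions the shares called were 0.109%, 0.056% and 0.0098%. In KO, Smarca4 gRNA was lower than empty vector by a mean difference of -0.398 points (p = 0.3333, exact permutation test, two-sided, the smallest that 2 against 2 allow). The lists held 40477 and 41024 peaks for KO empty vector and 35975 and 29930 for KO Smarca4 gRNA. With all ATAC lists cut to equal length, which also changed the sites that met the rule to 27855, the difference turned to 0.298, and the cause was not tested. Of the 63 sites that opened in KO with empty vector, 15 were also open in both KO Smarca4 gRNA libraries, 21 in 1 and 27 in neither. In all, 18740 of the sites (97.4%) had no peak in any of the 12 ATAC libraries.

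The strongest site that opened lies within Zbtb16, which encodes the zinc finger repressor PLZF. This site, chr9:48758601-48763599, had 926, 1119 and 1258 PU.1 reads in WT and 1297, 969 and 1147 in KO, with H3K4me1 islands of 421 and 830 reads in WT and 572 and 865 in KO. It had an ATAC peak in both KO empty-vector libraries and in none of the other ATAC libraries. Zbtb16 held 14 sites, 13 of them within the gene (chr9:48651797-48836225), and a second of them also opened. None of the 14 lost either mark in all KO libraries. The next opened sites lay 26227 bp from Itga4, the integrin alpha 4 gene, with 706, 769 and 832 PU.1 reads in WT and 751, 639 and 613 in KO, and 124651 bp from Tent5a. Frmd4b was the other gene with 2 opened sites, and the opened sites at Ahnak2, Aldh1a3 and Arhgap19 were single.

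The same rule was also applied from the KO side, with only the empty-vector lists of the Smarca4 set, to see how much a loss read from WT depends on the side from which the sites are chosen. From KO, 26262 regions had PU.1 in 3 and H3K4me1 in 2 libraries and no ATAC peak. Of these, 81.96% and 94.997% had H3K4me1 in the WT libraries and 4.42% had it in neither. Read from WT in the same way, 25461 regions had it in 70.0% and 82.5% in KO and 14.8% in neither. For PU.1 the absent shares were 3.24% from KO and 2.36% from WT. H3K4me1 absence was thus more frequent when sites were chosen in WT and read in KO, and PU.1 absence was not. List lengths differed in the same direction. H3K4me1 lists held 51394 and 54654 islands in WT and 44089 and 43706 in KO. For PU.1 they held 143628, 143183 and 137850 in WT and 171535, 138373 and 161605 in KO. The part of list length in this asymmetry was not tested.

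By nearest protein-coding gene the sites were spread over 7303 genes, 3385 of them with 1 site and 235 with 10 or more. Genes with the most sites were mainly long genes with many PU.1 regions. Jarid2, which encodes a subunit of Polycomb repressive complex 2, had 36 sites of 92 PU.1 regions, of which 8 lay within the gene. The forkhead factor genes Foxp1 and Foxn3 had 35 of 104 and 31 of 65. Runx1, which encodes a transcription factor essential for blood formation and a PU.1 partner, had 28 of 99. Next came Arid1b, encoding a BAF complex subunit, and Asap1, encoding an Arf GTPase-activating protein, with 27 each. Prkce, encoding protein kinase C epsilon, and Sgms1 had 26, and Igf1r, encoding the insulin-like growth factor 1 receptor, and Irf8 had 25.

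Irf8 differed from these in that most of its PU.1 regions met the rule. Irf8 encodes an interferon regulatory factor that binds DNA together with PU.1 and directs monocyte and dendritic cell development. It is short (chr8:120736358-120756694, 20.3 kb), and 25 of its 29 PU.1 regions were marked closed sites, over chr8:120707801-120825199. In the second WT H3K4me1 library 18 of the 25 lay in 1 island of 4005 reads, so they are not independent. PU.1 was present at 24, 24 and 25 of the 25 in the 3 KO libraries, and H3K4me1 at 18 and 21 in the 2 KO libraries. The site over the gene's start, chr8:120735201-120738199, had 152, 185 and 254 PU.1 reads in WT and 155, 69 and 57 in KO, so 2 KO libraries were below every WT library. A site 6307 bp from the gene, chr8:120763001-120763999, had 390, 423 and 445 in WT and 374, 227 and 258 in KO, all below the WT counts. No Irf8 site was within 1 kb of a WT ATAC peak, and the site over the start had an ATAC peak in 1 KO empty-vector library.

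**Figure D5:**
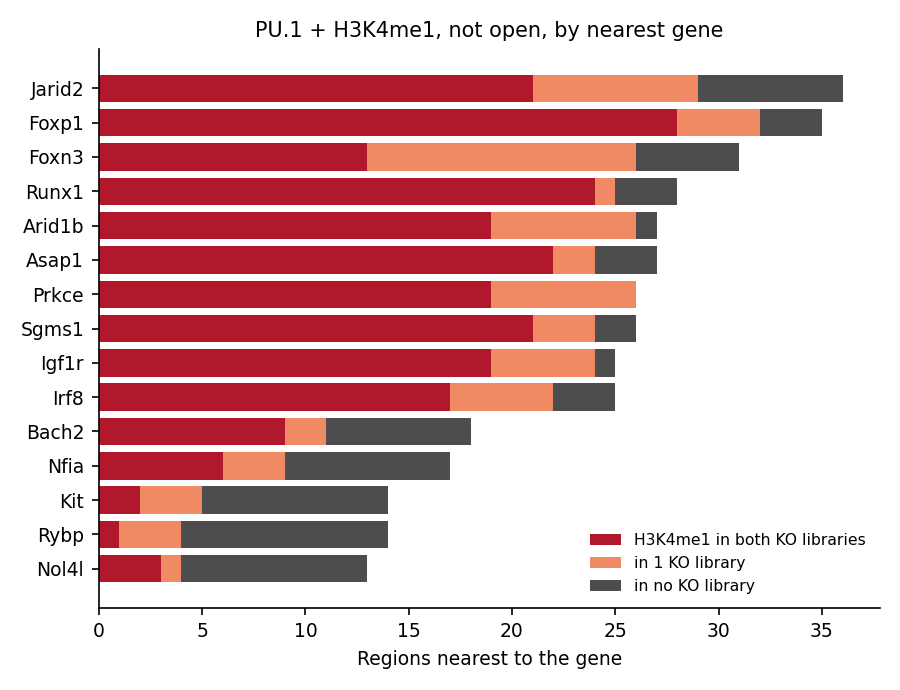
Number of marked closed sites nearest to each gene (x axis) for the 10 genes with most sites and the 5 named for most sites that lost H3K4me1, coloured by the number of Utx KO libraries with H3K4me1. Dark grey sites, absent from both KO libraries, make up 9 of 14 at Kit, 10 of 14 at Rybp and 9 of 13 at Nol4l, but 3 of 35 at Foxp1 and 3 of 28 at Runx1.

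Sites without H3K4me1 in both KO libraries were spread over 2444 genes, and of the 1034 genes with 5 or more sites 0 lost the mark at every site. The most lost sites were at Rybp (10 of 14), Kit (9 of 14), Nol4l (9 of 13) and Nfia (8 of 17), with 7 each at Bach2 (of 18) and Jarid2 (of 36). The share over all marked closed sites was 18.3%. Rybp encodes a subunit of Polycomb repressive complex 1, Nfia a nuclear factor I transcription factor and Bach2 a transcriptional repressor of lymphoid development. At the other end, Prkce lost the mark at 0 of 26 sites, the apoptosis inhibitor gene Bcl2 at 0 of 13 and the haematopoietic regulator gene Lmo2 at 0 of 14. The mark was in both KO libraries at 19, 12 and 10 of these. At Lmo2, 6 sites lay in 1 island of 2458 reads in WT replicate 2, so they are not independent. For 1 of the 6, chr2:103891401-103892199, only a KO island of 34 reads was left.

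Kit, which encodes the stem cell factor receptor of stem, progenitor and mast cells, shows the separation of the 2 marks. Its 14 sites lay over chr5:75430401-75793799, 3 of them within the gene (chr5:75574987-75656722). PU.1 was present at 13, 12 and 13 of the 14 in the 3 KO libraries, while H3K4me1 was present at 2 and 5 in the 2 KO libraries. A site 110388 bp from the gene, chr5:75463801-75464599, had 173, 147 and 98 PU.1 reads in WT and 97, 90 and 120 in KO, with overlapping ranges, and its H3K4me1 islands of 278 and 594 reads in WT had none in KO. Within the gene, chr5:75630001-75630599 had 141, 131 and 108 PU.1 reads in WT and 163, 129 and 128 in KO, and H3K4me1 islands of 82 and 682 reads in WT with none in KO. These 2 had the largest islands of WT replicate 2 among the lost Kit sites. The other lost sites had islands of 32 to 125 reads in WT replicate 1 and 50 to 220 in replicate 2. The medians over all marked closed sites were 122 and 309. The strongest PU.1 site near Kit, chr5:75694401-75695999, had 424, 426 and 405 reads in WT and 434, 239 and 333 in KO and kept an H3K4me1 island of 71 reads in 1 KO library. A weak site at chr5:75673201-75673599, with 27, 29 and 34 PU.1 reads in WT, was the only one at Kit to lose both marks.

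At Rybp (chr6:100228565-100287358) H3K4me1 was present at 1 and 4 of the 14 sites in the 2 KO libraries and PU.1 at 10, 10 and 13 in the 3 KO libraries. A pair of sites in 1 island, chr6:100190401-100191799 and chr6:100192401-100193399, had 235, 302 and 305 and 363, 364 and 356 PU.1 reads in WT. In KO they had 210, 124 and 145 and 287, 194 and 250, with all KO values below the WT ones, and H3K4me1 of 227 and 342 reads in WT with no island in KO. At Nol4l H3K4me1 was present at 3 and 4 of 13 sites and PU.1 at 9, 10 and 11. The strongest Nol4l site, chr2:153480401-153481999, kept both marks in all libraries, with 691, 728 and 776 PU.1 reads in WT and 571, 420 and 456 in KO.

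Loss of PU.1 in all 3 KO libraries, which was seen at 2.93% of all marked closed sites, reached at most 3 sites at any gene. Optc, which encodes the matrix protein opticin, lost it at 3 of 4 sites, and all 3 of those also lost H3K4me1. Their WT PU.1 reads were between 33 and 99. Prkag2, a gene of an AMP-activated kinase subunit, lost it at 3 of 14, the corepressor gene Rere at 3 of 24, the adhesion gene Sdk2 at 3 of 8 and Smad3, which transmits TGF-beta signals, at 3 of 20. With 3 sites or fewer at each gene, these counts describe single sites.

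Lists of genes of blood lineages and functions were described by the same counts, with no test, since the lists were drawn up with results of these data known. Over all marked closed sites, 18.3% lost H3K4me1 in both KO libraries. In the mast cell and basophil list it was 10 of 25 sites, but 9 of the 10 were at Kit, and without Kit it was 1 of 11. In the megakaryocyte list it was 11 of 42 (26.2%), spread over 8 genes, among them Cd9 with 2 of 10. In the erythroid list it was 13 of 50 (26.0%), also over 8 genes, with 3 of 23 at the globin repressor gene Bcl11a and 2 of 6 at Sox6, and without Bcl11a it was 10 of 27 (37.0%). In the stem cell list it was 16 of 69 (23.2%), with 5 of 12 at Mllt3 and 3 of 8 at Meis1, and without Mllt3 it was 11 of 57 (19.3%). In that list the ETS factor gene Erg kept the mark in both KO libraries at 8 of 8.

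The monocyte and macrophage, granulocyte and B cell lists had lower shares than the 18.3% over all sites. In the monocyte and macrophage list 9 of 99 sites (9.09%) lost H3K4me1, in the granulocyte list 2 of 21 and in the B cell list 4 of 42. At Ly86, which encodes MD-1, a partner of the receptor RP105, it was 1 of 18. The list of PU.1 partners and regulators held 151 sites, 35.4% of its 426 PU.1 regions against 17.4% for all genes. Of the 13 lists 12 were above 17.4%, and the 25 Irf8 sites count both here and in the monocyte and macrophage list. The partner and regulator list lost the mark at 19 (12.6%), or at 12 of 133 without Bach2. The growth and tumour suppression list lost it at 13 of 99, with 0 of 11 at the kinase gene Cdk6.

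Of the remaining lists, stroma and endothelium lost H3K4me1 at 10 of 64 sites, T and NK cell at 6 of 36, myeloid cytokine receptor at 5 of 24 (20.8%) and housekeeping at 2 of 9. For PU.1, the lists lost between 0 and 7 sites each, against 2.93% over all marked closed sites. The count was 7 of 151 (4.64%) among PU.1 partners and regulators, at 7 different genes, 4 of 69 (5.80%) in the stem cell list and 3 of 36 (8.33%) in the T and NK cell list. Spi1 itself had 1 marked closed site among its 6 PU.1 regions, which kept H3K4me1 in both KO libraries but not PU.1 in all 3. Cebpa, which encodes a factor of granulocyte and monocyte development, had 6 of 12. PU.1 was kept in all 3 KO libraries at 6 of the 6 Cebpa sites, against 85.5% over all marked closed sites, and H3K4me1 in both at 2 of 6, against 60.9%. H3K4me1 was absent from both KO libraries at 0 of the 6, against 18.3%, so the rest kept it in 1 library.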

How the data were processed

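Peak lists of 22 libraries were used; 2 further samples are inputs with no list here. Per the labels, the authors' tools include Bowtie, Bowtie2, SICER and MACS2 on mm10, with no role or version, and Bowtie and MACS2 alone for the Chd4 set. The deposited ChIP lists give islands on a 200 bp grid with a whole number each, taken as an island read count. That role is inferred from the values, since no label states it. The count is the authors', unscaled for depth, and served only to rank islands within a list and to describe them. The deposited ATAC lists give only interval coordinates (other values are absent), so no count or interval can be given for them.

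Peaks were merged where they overlapped or touched, and any overlap counted as held. Percentiles are ranks within a library's autosomal list, averaged over 3 WT libraries for a region. A site was lost when no KO library had a peak and kept when all had one. Regions were assigned to the nearest of 20665 autosomal protein-coding gene spans of RefSeq GRCm38.p6, of which 16457 have a start in the promoter table. Classes were compared over libraries by two-sided exact sign-flip permutation tests. Named genes were the 10 nearest to most sites, the 5 with most sites losing H3K4me1, PU.1 or opening, and 2 of each list; named sites were the strongest of each state. Some genes that this choice picks are not reported here. Individual sites of these genes were chosen after their values were seen. The sites and the 13 lists (222 genes, 217 matched) were chosen with earlier results of these data known. Alternatives were 50% cover, the upper 50% of each list, equal list lengths, other closure rules, and each library left out. The code was tested on simulated data. Scripts ran in Python 3.11.15 with pandas 2.3.3, numpy 2.4.6, matplotlib 3.10.9 and scipy 1.17.1.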

Additional observations from a re-analysis of the deposited data

How the results depend on the processing

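Of 108 tested differences recomputed under an alternative, 98 kept their direction, and no alternative could bring p below 0.25. The PU.1 difference between marked closed and unmarked closed sites was -3.90 points with 50% cover, -0.500 with the upper 50% of PU.1 lists and -0.0123 with no peak in any of 12 ATAC libraries, and, in 2 of the comparisons added after seeing the data, -3.65 as a mean within 3 ranges of PU.1 strength and -9.56 in the weakest. Leaving out 1 library moved it between -0.277 and 0.884, turning it without KO PU.1 replicate 2 (-0.277) or WT H3K4me1 replicate 2 (-0.200). The opening difference was -0.0196 with 50% cover, a setting limited by the widths of ATAC peaks and sites. The Smarca4 gRNA difference was 0.298 with equal ATAC lists, and the PU.1 difference by H3K4me1 state 0.00755 in the strongest range. The causes were not tested.

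With 50% cover, which left 12904 sites, PU.1 was kept at 77.8%, PU.1 was lost at 1044 sites, H3K4me1 at 2331, and 0.0542% of sites opened (5 in both libraries). That opening share is limited by the narrow ATAC peaks. The upper 50% of lists gave 11180 sites (PU.1) and 11960 (H3K4me1), with 343 PU.1 losses in the former. Equal PU.1 lists gave 868 PU.1 losses of 18994 sites, and equal ATAC lists 1.53% opening and 245 opened sites of 27855. Leaving out 1 library gave 19697 to 28708 sites, 572 to 1113 PU.1 losses (1113 without KO PU.1 replicate 1), 3557 to 8281 H3K4me1 losses (8281 without WT H3K4me1 replicate 1, 6973 without KO replicate 2), H3K4me1 kept at 59.8% to 78.8%, 0.644% to 1.31% opening and 65 to 146 opened sites. With the replicate block the Smarca4 gRNA difference was -0.398 (p = 0.5, exact sign-flip permutation test). Same-numbered libraries deviated together with a correlation of 0.0208 over 25392 regions, so the numbers were not taken as pairs.

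The lists limit these results in that a missing island can be a site just under the authors' threshold, and a list without depth cannot say how far under. Since WT chose the sites, a change of PU.1 or H3K4me1 is a loss and a change of ATAC a gain by the rule.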
